A study of Mus musculus with 4 samples.

Results

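Of 1259 clusters of integration sites made by full-length wild-type TAF3, 122 held no site of the wild-type PHD domain alone, and these PHD WT-free clusters are described here. In HIT-seq a chromatin protein carries the part of LEDGF that binds HIV integrase, an HIV-based vector then integrates near the places where this fusion sits, and the junctions between vector and genome are sequenced. A cluster is a run of junctions of that library (Full WT), strands pooled, in which neighbours lie at most 1000 bp apart. Runs of 3 or more junctions were kept, 500 bp were added at each side, and a cluster was PHD WT-free when it held 0 junctions of the wild-type PHD domain (PHD WT). The clusters were thus chosen by measured positions of these 2 libraries, and they may hold sites of the PHD domain with M880A. The PHD WT-free clusters made up 9.69% of all clusters, and the remaining 1137 are called PHD WT-containing.

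The study had 4 libraries, 1 per group, all from Psip1-null mouse embryonic fibroblasts (MEF) of strain C57BL/6 that were transfected with a TAF3 fusion, sorted for GFP and infected with the vector. Psip1 encodes LEDGF/p75, through which HIV integrase is guided to chromatin in normal cells, and every group lacks it. The fusions were full-length TAF3 with the M880A substitution (Full M880A), full-length wild-type TAF3 (Full WT), the PHD domain alone with M880A (PHD M880A) and the wild-type PHD domain alone (PHD WT). The fusions were introduced on plasmids beside the cells' own TAF3, whose binding is not measured.

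TAF3 is a subunit of TFIID, the general factor that recognises core promoters and starts the assembly of the transcription machinery with RNA polymerase II. Its PHD finger, at the carboxy-terminal end, is a small zinc-binding domain that binds the H3K4me3 histone mark found at active promoters. The rest of the protein carries a histone fold, through which TAF3 pairs with another TFIID subunit.

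The lists held 39292 distinct junctions in Full M880A, 22486 in Full WT, 34888 in PHD M880A and 25363 in PHD WT. With 1 library per group there is no replicate check, no p-value is given, and every statement compares these libraries and not the conditions. Intervals are exact 95% intervals that cover counting error only. They treat regions or junctions as independent, and PCR reads carry no molecular identifiers, so they may be too narrow. Full WT had its own flow cell, not shared with the other 3 libraries, so that flow cell and fusion cannot be told apart where Full WT is set against them. Coordinates are in mm9. Genes and sequences at the clusters were not analysed here, because the annotation used here is of another build.

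The PHD WT-free clusters were small. Of the 122, 85 had 3 Full WT junctions, 30 had 4, 6 had 5 and 1 had 6. Among the PHD WT-containing clusters 39.3% had 3 junctions and 38.5% had 5 or more, up to 22. The median width, with the added bases, was 1675 bp in PHD WT-free clusters, with a range of 1019 to 3587 bp, and 1998 bp in PHD WT-containing ones. Altogether the PHD WT-free clusters covered 208.7 kb and held 411 Full WT junctions, which is 1.83% of that library. These values follow in part from the selection, since a small cluster has fewer chances to hold a PHD WT junction, and they are given as a description.

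Clusters just outside the limits show how narrow the selection is. The 161 clusters with 1 PHD WT junction had 3.69 Full WT junctions on average, close to the 3.37 of the PHD WT-free ones. Of 1445 runs of only 2 Full WT junctions, 601 had no PHD WT junction within the same added bases. On the other side of the distance limit, the nearest PHD WT junctions lay 53, 54, 131, 148 and 152 bp beyond the edge of a PHD WT-free cluster.

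The PHD WT-free clusters with the most Full WT junctions held between 0 and 8 Full M880A junctions. The fullest, on chromosome 12 from 82046233 to 82048494, held 0 Full M880A, 6 Full WT, 0 PHD M880A and 0 PHD WT junctions. Its Full WT junctions lay on both strands, 2 plus and 4 minus, with 3 to 237 reads each, and the nearest PHD WT junction was 153225 bp away. On chromosome 11, positions 70513308 to 70515668 held 8 Full M880A, 5 Full WT, 0 PHD M880A and 0 PHD WT junctions. This was the highest Full M880A count of any PHD WT-free cluster. Scaled to the length of the lists, it was 2.04 per 10000 junctions in Full M880A and 2.22 in Full WT. The cluster was picked for its Full WT count and has the highest Full M880A count, so the nearness of these shares is set in part by the choice. All 5 Full WT junctions there lay on the plus strand, and 1 of them had 1072 reads.

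On chromosome 7, positions 29596477 to 29597966 held 3 Full M880A, 5 Full WT, 2 PHD M880A and 0 PHD WT junctions within 1490 bp. It was the only cluster of 5 or more Full WT junctions in the set with a PHD M880A junction, and the nearest PHD WT junction lay 1399 bp from its edge. A second cluster on chromosome 12, from 55962093 to 55964134, held 1 Full M880A, 5 Full WT, 0 PHD M880A and 0 PHD WT junctions. The cluster on chromosome 3 from 51361941 to 51364871 and those on chromosome 5 from 110658588 to 110660981 and from 123793942 to 123795520 held 5 Full WT junctions each and none of the other libraries. Their distances to PHD WT were unlike. The last of them had a PHD WT junction 336 bp from its edge, whereas the nearest were 50723 and 36330 bp away in the other two.

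Of the clusters with 4 Full WT junctions, 3 entered the 10 fullest through their Full M880A counts. Positions 130813360 to 130815666 of chromosome 3 held 5 Full M880A, 4 Full WT, 0 PHD M880A and 0 PHD WT junctions, with the nearest PHD WT junction 159250 bp away. Positions 34741222 to 34743603 of chromosome 17 and 42222032 to 42223290 of chromosome 19 held 4 Full M880A, 4 Full WT, 0 PHD M880A and 0 PHD WT junctions each. These 3 were taken from the 30 clusters with 4 Full WT junctions because their Full M880A counts were the highest, so those counts are set by the choice. Of the 7 clusters with 5 or 6 Full WT junctions, which entered without a tie, 4 held no junction of either M880A library, 57.1% (18.4 to 90.1). Over all Full WT clusters with 5 or more junctions this share was 10.3%, or 46 of 445. PHD WT is 0 by the rule.

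**Figure D1:**
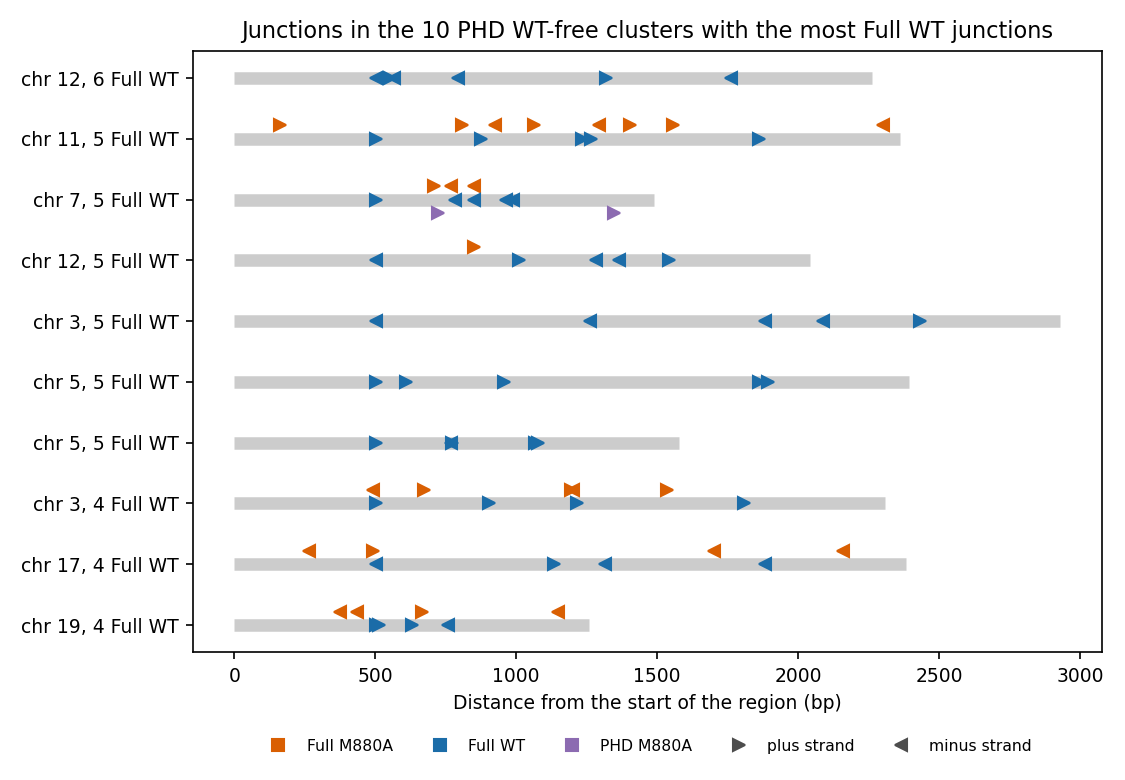
Each grey bar is 1 of the 10 PHD WT-free clusters with the most Full WT junctions, drawn to scale from its start (x axis, bp), with 500 bp added at each side. Triangles are junctions of Full M880A (above the bar), Full WT (on it) and PHD M880A (below it), pointing right for the plus strand and left for the minus strand; 4 of the 10 clusters hold Full WT junctions only, and the chromosome 11 cluster holds 8 of Full M880A.

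The other clusters with the most Full M880A junctions had 3 or 4 of Full WT. On chromosome 16, positions 44556601 to 44558468 held 7 Full M880A, 3 Full WT, 3 PHD M880A and 0 PHD WT junctions. Of the 7, those at 44558254 and 44558261 lay within 10 bp of each other on the plus strand. A PHD WT junction lay 371 bp from the edge of this cluster. On chromosome 1, positions 16095506 to 16097375 held 4 Full M880A, 3 Full WT, 0 PHD M880A and 0 PHD WT junctions, and here the nearest PHD WT junction was 53 bp beyond the edge, the smallest distance in the set. These 2 clusters were PHD WT-free by a small margin.

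On chromosome 2, positions 91847186 to 91848229 held 4 Full M880A, 3 Full WT, 0 PHD M880A and 0 PHD WT junctions. Its 3 Full WT junctions fell within 44 bp, on 1 strand and with 2 to 4 reads each, and they were 2 sites when same-strand positions within 10 bp were merged. Another cluster of the same chromosome, from 92023660 to 92025298, held 3 Full M880A, 4 Full WT, 0 PHD M880A and 0 PHD WT junctions. Its 4 Full WT junctions were 3 sites after this merging. Positions 41452117 to 41454521 of chromosome 13 had the same junction counts, and there the nearest PHD WT junction was 303589 bp away. Of the 3 Full M880A junctions there, those at 41452873 and 41452874 lay at adjacent bases of 1 strand, with 21 and 3 reads. In 11 of the 122 PHD WT-free clusters (9.02%) there were at least as many Full M880A as Full WT junctions, and in 13.5% of the PHD WT-containing ones; the Full M880A list was 1.75 times as long.

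The highest PHD M880A count was 3, in the chromosome 16 cluster above and on chromosome 10 from 80646455 to 80648625, where there were 1 Full M880A, 3 Full WT, 3 PHD M880A and 0 PHD WT junctions. On chromosome 7, positions 105456496 to 105458350 held 0 Full M880A, 4 Full WT, 2 PHD M880A and 0 PHD WT junctions. The 2 PHD M880A junctions lay at adjacent bases of the plus strand, with 30 and 5 reads. They would be 1 site with same-strand positions within 10 bp merged. This cluster had the most distant PHD WT junction of all, 393755 bp away. On chromosome 2, positions 31617606 to 31619521 held 0 Full M880A, 3 Full WT, 2 PHD M880A and 0 PHD WT junctions.

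The M880A libraries were not used to choose the clusters, and they ask whether the full-length protein with a changed PHD finger and the PHD domain with the same change had junctions in the regions where the wild-type PHD domain alone had none. Full M880A junctions were present in 51 of the 122 PHD WT-free clusters, or 41.8% (32.9 to 51.1), against 827 of the 1137 PHD WT-containing ones, or 72.7% (70.0 to 75.3). Over all Full WT clusters the share was 69.7%. The odds of a Full M880A junction in PHD WT-free clusters were 0.270 times those in PHD WT-containing ones (0.180 to 0.402). Counts of 2 or more were found in 26 PHD WT-free clusters (21.3%, with 45.6% over all clusters), and 14 (11.5%) overlapped a Full M880A run of 3 or more junctions made by the same rule, with 31.4% over all clusters. A PHD M880A run of this kind was met by 2 (1.64%, with 5.96% over all clusters).

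PHD M880A junctions were rarer in both sets. They were present in 14 PHD WT-free clusters, or 11.5% (6.42 to 18.5), and in 394 PHD WT-containing ones, or 34.7% (31.9 to 37.5), with 32.4% over all clusters and an odds ratio of 0.245 (0.128 to 0.436). Both M880A libraries met in 7 PHD WT-free clusters (5.74%, with 26.2% over all clusters). Full M880A without PHD M880A was the most common pattern with a junction, in 44 (36.1%, with 43.5% over all clusters), and PHD M880A without Full M880A was found in 7 (5.74%, with 6.2% over all clusters). No junction of either M880A library was found in 64 PHD WT-free clusters, or 52.5% (43.2 to 61.6), whereas 21.0% of the PHD WT-containing clusters and 24.1% of all clusters had none.

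The shares were higher in clusters with more PHD WT junctions, apart from a nearly level step between 2 junctions and 3 to 4, when clusters of all sizes were counted. With 1 PHD WT junction, 54.0% of the clusters held a Full M880A junction and 17.4% a PHD M880A junction. With 2 they were 69.5% and 28.0%, with 3 to 4 they were 70.0% and 26.9%, and with 10 or more they were 89.0% and 63.2%. The PHD WT-free clusters, at 41.8% and 11.5%, lay at the low end, and their intervals overlapped those of clusters with 1 PHD WT junction. Runs of only 2 Full WT junctions without PHD WT held a Full M880A junction in 22.6% and a PHD M880A junction in 10.3%. The size of a cluster increases over the same classes, from a mean of 3.37 Full WT junctions without PHD WT to 7.74 with 10 or more.

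**Figure D2:**
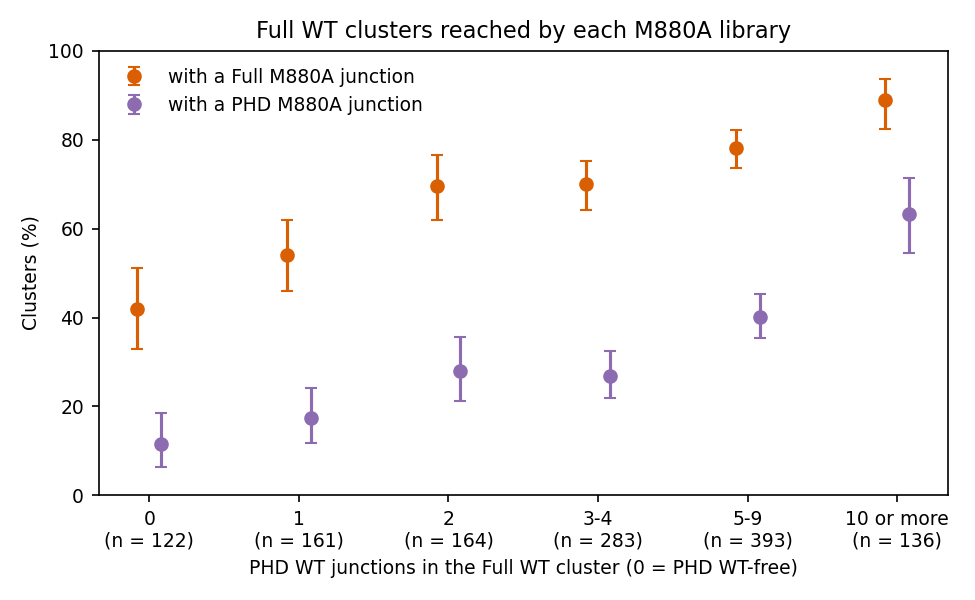
The percent of Full WT clusters with at least 1 Full M880A or PHD M880A junction (y axis) is plotted by the number of PHD WT junctions in the cluster (x axis, with the number of clusters). Points are shares and bars exact 95% intervals; the PHD WT-free class is the lowest for both libraries, at 41.8% and 11.5%.

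The sets were also compared at an equal number of Full WT junctions. Widths still differed, with a median of 1522 bp in PHD WT-free and 1678 bp in PHD WT-containing clusters of 3 junctions. Among clusters of exactly 3 Full WT junctions, 31 of 85 PHD WT-free ones held a Full M880A junction, 36.5% (26.3 to 47.6), against 273 of 447 PHD WT-containing ones, 61.1% (56.4 to 65.6), with 57.1% over all clusters of this size. PHD M880A was present in 10.6% (4.96 to 19.2) of the PHD WT-free and 26.8% (22.8 to 31.2) of the PHD WT-containing clusters of 3 junctions, with 24.2% over all. Within this size the Full M880A share was 52.0% with 1 PHD WT junction, 64.8% with 2, 62.1% with 3 to 4 and 64.8% with 5 or more, so that it was level from 2 junctions on. PHD M880A was present in 19 of 102, 22 of 88, 34 of 132 and 45 of 125 clusters of the same classes. The odds ratios at this size were 0.367 (0.218 to 0.607) for Full M880A and 0.323 (0.138 to 0.673) for PHD M880A. At 4 junctions they were 0.494 (0.213 to 1.17) and 0.371 (0.0910 to 1.12), and both intervals held 1. With 5 or more there were 7 PHD WT-free clusters, of which 3 held Full M880A and 1 held PHD M880A, against 84.7% and 45.7% of 438 PHD WT-containing clusters. The odds ratios were 0.136 (0.0195 to 0.826) for Full M880A and 0.199 (0.00429 to 1.66) for PHD M880A. Densities per kb, PHD WT-free over PHD WT-containing clusters of 3 junctions, were in ratios of 0.624 (0.467 to 0.819) for Full M880A and 0.538 (0.287 to 0.930) for PHD M880A.

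**Figure D3:**
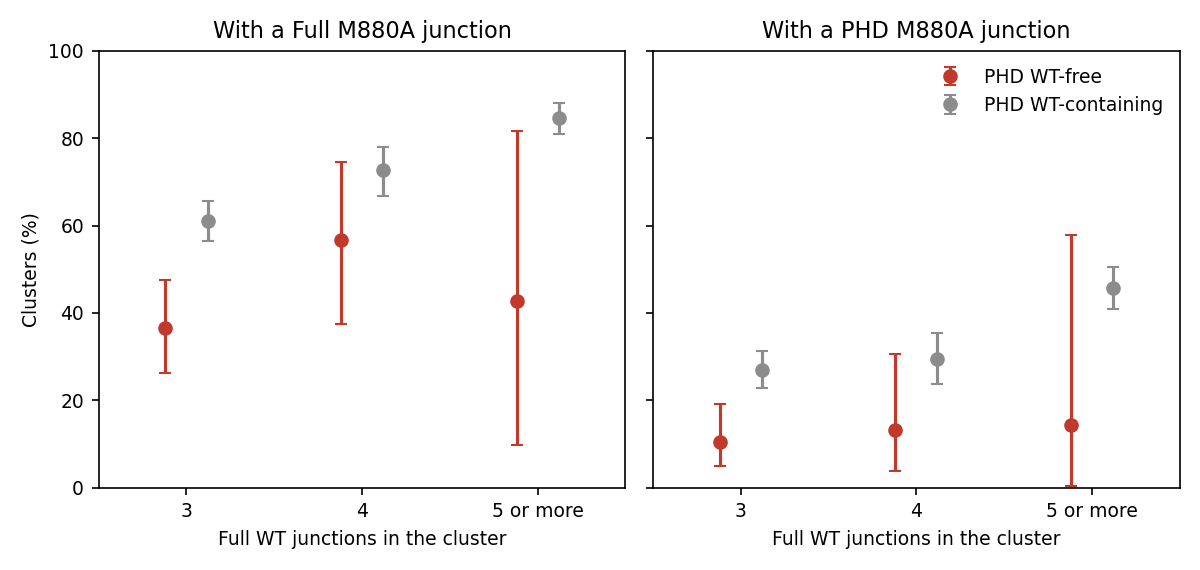
The percent of clusters with a Full M880A junction (left) or a PHD M880A junction (right) is plotted by the number of Full WT junctions in the cluster, for PHD WT-free (red) and PHD WT-containing clusters (grey), with exact 95% intervals. The intervals are apart at 3 junctions and overlap at 4, where 30 PHD WT-free clusters entered.

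In total the PHD WT-free clusters held 106 Full M880A and 21 PHD M880A junctions. Per Full WT junction that is 0.258 of Full M880A, against 0.463 in PHD WT-containing clusters, a ratio of 0.557 (0.454 to 0.676). For PHD M880A it is 0.0511, against 0.121, a ratio of 0.422 (0.260 to 0.651). Both M880A libraries came from 1 flow cell and can be set against each other: the PHD WT-free clusters held 27.0 per 10000 Full M880A junctions (22.1 to 32.6) and 6.02 per 10000 PHD M880A junctions (3.73 to 9.20), a ratio of 4.48 (2.79 to 7.54). In PHD WT-containing clusters the ratio was 3.40 (3.12 to 3.71). The ratio of these ratios was 1.32 (0.812 to 2.23), an interval that holds 1, and it allows a ratio in PHD WT-free clusters that is lower or higher than in the others.

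Full M880A junctions were nonetheless concentrated at the PHD WT-free clusters compared with the surrounding sequence. Their density was 0.508 per kb inside and 0.0343 per kb at 5 to 50 kb from the edges, with all Full WT clusters left out of the flanks, a fold of 14.8 (11.8 to 18.4). PHD M880A had 0.101 per kb inside and 0.0251 per kb in the flanks, a fold of 4.01 (2.44 to 6.26). In PHD WT-containing clusters the folds were 29.0 (27.5 to 30.6) and 9.30 (8.53 to 10.1). The flanks themselves were rich in sites, with 2.24 times the genome-wide density of Full M880A and 2.57 times that of PHD WT around PHD WT-free clusters, and 2.39 and 2.22 times around PHD WT-containing ones.

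The Full M880A density fell off over a few kb. Around PHD WT-free clusters it was 0.179 per kb in the first kb beyond the edge, 0.142 in the second and 0.0550 from 2 to 5 kb. PHD WT, absent inside by the rule, had 0.162 per kb in the first kb beyond the edge, 0.101 in the second and 0.0248 from 2 to 5 kb, where it was at the level of the wider flanks (0.0254 per kb). Around PHD WT-containing clusters PHD WT had 0.464 per kb in the first kb and 0.107 in the second.

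**Figure D4:**
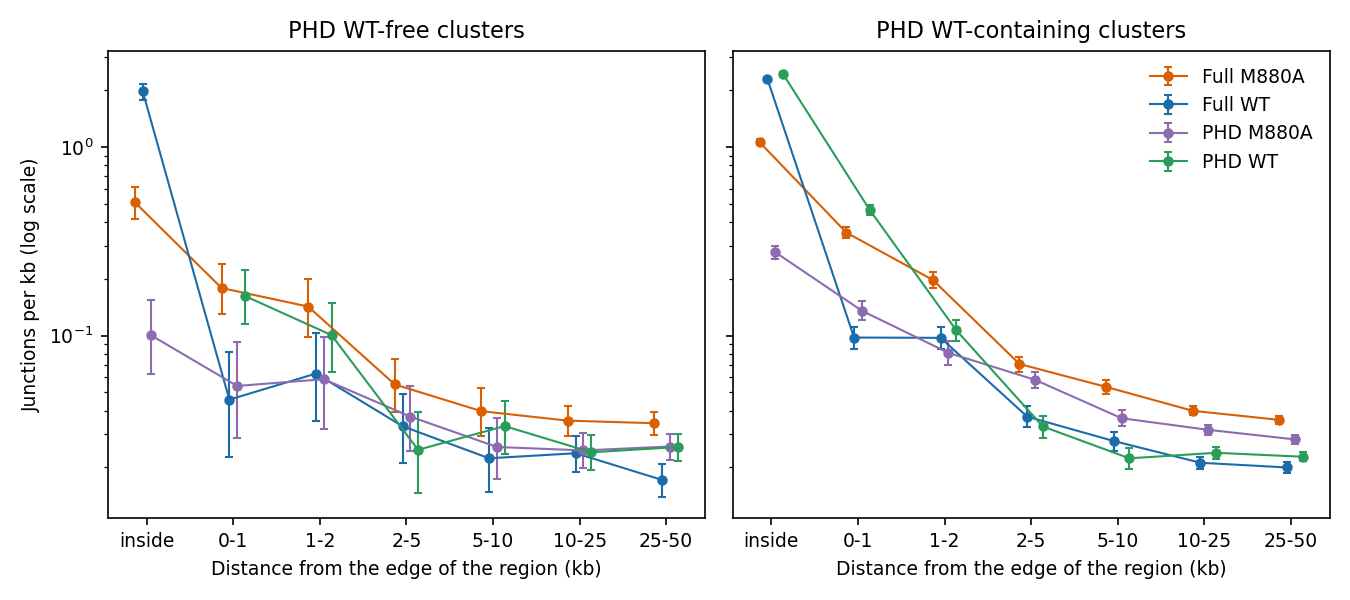
Junctions per kb (log axis) of the 4 libraries are plotted inside the clusters and at increasing distance from their edges, for PHD WT-free (left) and PHD WT-containing clusters (right), with exact Poisson 95% intervals. PHD WT has no point inside the PHD WT-free clusters, where its count is 0 by the rule, and lies at 0.162 per kb in the first kb outside them. The Full WT values inside and next to the clusters are also set by the rule, which allows no Full WT junction in the first 500 bp beyond an edge.

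The distance to the nearest PHD WT junction varied widely among the PHD WT-free clusters. The median was 19507 bp from the edge, with quartiles of 1405 and 64930 bp. A PHD WT junction lay within 1 kb of 26 clusters, within 5 kb of 37 and within 50 kb of 85, so that 37 had none within 50 kb. Of the 37 clusters with PHD WT within 5 kb, 10 held a PHD M880A junction, 27.0% (13.8 to 44.1), against 4 of the other 85, 4.71% (1.30 to 11.6). The odds ratio was 7.35 (1.93 to 34.8). Full M880A was present in 13 of the 37, 35.1% (20.2 to 52.5), and in 38 of the 85, 44.7% (33.9 to 55.9), an odds ratio of 0.672 (0.275 to 1.59).

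The division at 5 kb was chosen after the data had been seen, and its PHD M880A odds ratio was the largest of the distances tried. At distances of 1 and 2 kb the PHD M880A odds ratios were 4.61 (1.22 to 17.5) and 5.58 (1.52 to 23.2). At 10 and 50 kb they were 6.92 (1.69 to 41.0) and 2.86 (0.587 to 27.7), and the last interval held 1. Every Full M880A interval held 1. In the 85 clusters with no PHD WT junction within 5 kb, PHD M880A had 7 junctions and Full M880A had 74. There the PHD M880A density was 1.86 times that of the flanks (0.738 to 3.91), an interval that holds 1.

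**Figure D5:**
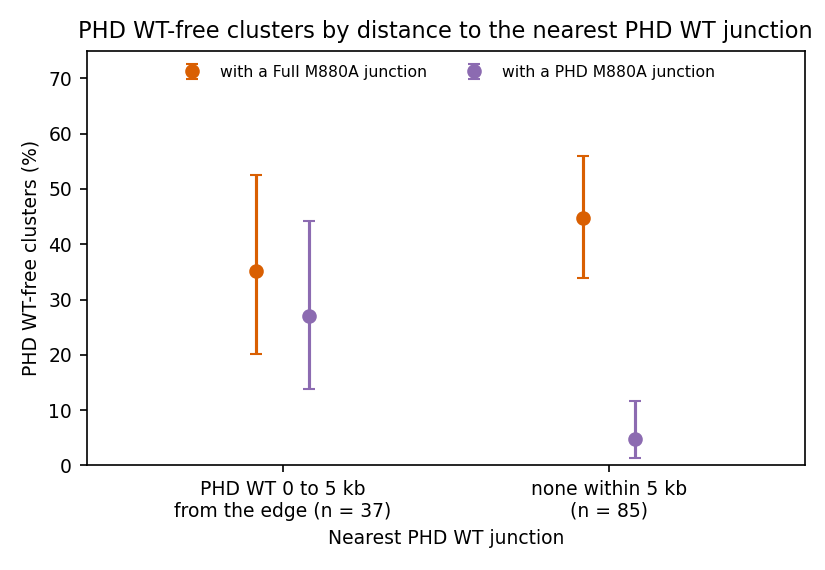
The percent of PHD WT-free clusters with a Full M880A or a PHD M880A junction is plotted for the 37 clusters that have a PHD WT junction within 5 kb of the edge and the 85 that have none, with exact 95% intervals. The PHD M880A share is 27.0% in the first and 4.71% in the second, and the Full M880A intervals overlap.

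Few M880A junctions lay at the same base as a Full WT junction. PHD WT-free clusters had fewer Full WT junctions each, and the distances and same-base counts were not matched for cluster size. The median distance of a Full M880A junction to the nearest Full WT junction was 143 bp in PHD WT-free clusters and 105 bp in PHD WT-containing ones. At the same base as a Full WT junction lay 1 of 106 Full M880A and 0 of 21 PHD M880A junctions in PHD WT-free clusters, against 51 of 2539 and 22 of 663 in PHD WT-containing ones. Of the 106, 56 lay between the outermost Full WT junctions, 52.8% (42.9 to 62.6), a stretch that made up 41.5% of the bases. In PHD WT-containing clusters 68.3% lay in such a stretch, which made up 52.6% of the bases.

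The Full WT junctions of PHD WT-free clusters differed from those of PHD WT-containing clusters in the lower quartile of reads, but hardly in the median. Among clusters of 3 junctions they also differed in strand, which was not seen where all 3 had 10 or more reads. Among clusters of 3 junctions, all 3 were on 1 strand in 36 of 85 PHD WT-free clusters, 42.4% (31.7 to 53.6), against 109 of 447 PHD WT-containing ones, 24.4% (20.5 to 28.6), an odds ratio of 2.27 (1.36 to 3.78). With 4 junctions the shares on 1 strand went the other way, 10.0% (2.11 to 26.5) and 14.7% (10.6 to 19.7), with overlapping intervals. Merging of same-strand positions within 10 bp left fewer than 3 sites in 17 PHD WT-free clusters, 13.9% (8.33 to 21.4). Of the PHD WT-containing ones, 3.34% (2.38 to 4.56) fell under 3 sites. Small clusters fall under this number more easily. Among clusters of 3 junctions the counts were 17 of 85 and 36 of 447. At least 3 junctions of 10 or more reads were present in 61 of 122 PHD WT-free clusters and in 819 of 1137 PHD WT-containing ones, or 72.0%. Larger clusters meet this condition more easily. Among clusters of 3 junctions it was met by 32 of 85 PHD WT-free and 204 of 447 PHD WT-containing ones. Among clusters of 3 junctions that all had 10 or more reads, the share on 1 strand was 21.9% (9.28 to 40.0) and 22.5% (17.0 to 28.9). In the other clusters of 3 junctions it was 29 of 53, 54.7% (40.4 to 68.4), and 63 of 243, 25.9% (20.5 to 31.9).

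The Full M880A shares were computed again within these classes. In PHD WT-free clusters with 3 or more sites after merging the share was 43.8% (34.1 to 53.8), and in the 61 with 3 junctions of 10 or more reads 49.2% (36.1 to 62.3), against 73.4% and 77.9% in the PHD WT-containing clusters of the same classes. Where fewer than 3 sites were left after merging it was 29.4% (10.3 to 56.0), against 52.6%. The classes were not matched for cluster size. Of the 105 PHD WT-free clusters with 3 or more sites after merging, 68 had 3 junctions, against 411 of 1099 PHD WT-containing ones. In the class with 3 junctions of 10 or more reads, 32 of 61 and 204 of 819 clusters had 3 junctions in all. The ratio of Full M880A per Full WT junction, PHD WT-free over PHD WT-containing clusters, was also recomputed with the clusters formed anew. It was 0.786 (0.643 to 0.953) with at least 10 reads per site and 0.568 (0.457 to 0.698) with merging, against 0.557 (0.454 to 0.676). The part of close positions and low read numbers in the difference between the sets was otherwise not tested. The median reads per Full WT junction were alike, 43 in PHD WT-free and 45 in PHD WT-containing clusters, but the lower quartile was 6 and 11 reads.

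PHD WT-free clusters lay on all 19 autosomes and on X. They made up 7 of 25 clusters on chromosome 12, 28.0% (12.1 to 49.4), and 6 of 27 on chromosome 18, 22.2% (8.62 to 42.3), against 9.69% over the genome. On chromosome 11, which had the most clusters, they were 8 of 119, 6.72% (2.95 to 12.8), and on X 1 of 28. Of the 20 intervals only that of chromosome 12 excludes the overall share, and they are not adjusted for the number of chromosomes. A PHD WT-containing cluster lay within 50 kb of 33 PHD WT-free clusters, 27.0% (19.4 to 35.8), and within 50 kb of 24.3% of the other PHD WT-containing clusters, so that the sets were interspersed. A PHD WT-free cluster lay within 50 kb of 5 other PHD WT-free clusters (4.10%) and of 35 PHD WT-containing ones (3.08%), which are similar shares.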

How the data were processed

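HIT-seq libraries of 4 fusions, 1 each, were analysed. Per the file headers, the lists that the authors deposited hold integration sites from paired-end reads. The submitters' processing notes name the build, mm9, and the tool MACS 1.4.2 without a role. How reads were aligned, filtered and joined into sites is not given in the sources used here. In the files the deposited score column holds 0 throughout and entered no result. The number that follows each read name, at least 2, was read as the site's reads, judging by its values alone.

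Junctions were the 5′ ends (start + 1 on plus, end on minus, printed 1-based), collapsed by chromosome, strand and position; all were used, without thinning. A junction's reads are summed over its lines. Groups came from the sample characteristics. No test was run. Shares have Clopper-Pearson intervals, ratios of counts exact conditional binomial intervals, odds ratios exact conditional intervals and densities exact Poisson intervals, at 95%. Flanks were 5 to 50 kb from the edges. Named regions were the 10 with the most Full WT junctions (ties by Full M880A, then PHD M880A), the 10 with the most Full M880A and the 5 with the most PHD M880A (ties by Full WT), 18 in all. The clusters, the regions and the measures were chosen with earlier results of these data known. The code was tested on simulated data. Python 3.11.15, numpy 2.4.6, scipy 1.17.1 and matplotlib 3.10.9 were used.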

Additional observations from a re-analysis of the deposited data

How the results depend on the processing

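In PHD WT-free clusters, 7 values were recomputed under 12 alternatives, and those set against the flanks under 1 more. No ratio itself crossed 1, but some intervals held 1. With runs of 5 or more, Full M880A per Full WT junction over PHD WT-containing clusters was 0.661 (0.341 to 1.16). The same ratio for PHD M880A was 0.438 (0.0529 to 1.59). The number of clusters, 122, was 37 with runs of 4 or more sites, 7 with 5 or more and 270 with no bases added. The share with Full M880A, 41.8%, was 54.1% with runs of 4 or more and 27.8% with no bases added. Full M880A per Full WT junction over PHD WT-containing clusters, 0.557, was 0.429 with no bases added and 0.786 (0.643 to 0.953) with at least 10 reads per site. The Full M880A density over the flanks, 14.8, was 11.6 with gaps of up to 2000 bp, 26.3 with runs of 5 or more, 22.5 with no bases added, 11.1 with 1000 bp added, 22.6 with at least 10 reads and 11.2 with flanks of 2 to 10 kb. For PHD M880A, the ratio per Full WT junction, 0.422, was 0.244 with gaps of up to 500 bp, and the density over the flanks, 4.01, was 7.56 (0.814 to 34.6) with runs of 5 or more. With no PHD WT junction allowed within 5 kb, an alternative chosen after seeing the data, the PHD M880A share was 4.71%, the ratio 0.200 and the density over the flanks 1.86. Every other value lay within the interval of the main one, or within 1.5 times the main count; these alternatives included merging within 10 bp, shared positions left out, autosomes only and the other end as the junction. The causes were not tested. No paired analysis was possible because each group has 1 library. The PHD M880A values rest on 21 junctions in 14 clusters, and their intervals are wide for that reason.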
